A study of Mus musculus with 6 samples.

Results

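Cathepsins are the proteases of the lysosome. The genes described here are the 10 mouse cathepsin genes Ctsa, Ctsb, Ctsc, Ctsd, Ctse, Ctsh, Ctsk, Ctsl, Ctss and Ctsz, chosen by name out of the 21780 genes listed in the count table. All 10 passed the filter on low counts that left 14429 protein-coding genes for testing. RNA was sequenced from CD45+CD11b+ cells, a sort that takes myeloid leukocytes, from the pancreas of wild-type C57BL/6J mice of both sexes, aged 6 to 8 weeks, 7 days after a single intraperitoneal injection. The PBS group (3 libraries) received the vehicle and the WGP group (3 libraries) received 1 mg of whole glucan particles, hollow β-glucan shells of the yeast Saccharomyces cerevisiae that cells take up by phagocytosis. Both groups shared strain, tissue, sort and day, and neither carried an altered allele. The question put to the cathepsins was whether their transcripts, and those of the genes that deliver or restrain them, differed between pancreatic myeloid cells of particle-injected and control mice.

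Cathepsins are made as inactive precursors, are tagged with mannose 6-phosphate in the Golgi, and are carried by receptors to endosomes, where acid pH and cleavage activate them. Most are cysteine proteases (Ctsb, Ctsc, Ctsh, Ctsk, Ctsl, Ctss and Ctsz), Ctsd and Ctse are aspartic proteases, and Ctsa is a serine carboxypeptidase. In macrophages and dendritic cells they digest what the cell has ingested and trim the invariant chain that blocks the groove of MHC class II. Cystatins and stefins bind cysteine cathepsins in the secretory pathway, outside the cell and in the cytosol.

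The libraries held from 35334645 to 43341834 counts. Levels are CPM, the counts of a gene brought to a common library total that was scaled by the trimmed mean of M values (TMM), differences are log2 fold changes of WGP over PBS with their standard errors (SE) from edgeR's quasi-likelihood test, and a gene passed where its p, adjusted by Benjamini and Hochberg's method over all 14429 genes, was no more than 0.05. In a sorted bulk sample, fewer cells of a type and less RNA per cell cannot be told apart. The sorting markers Ptprc (CD45) and Itgam (CD11b) were present in every library, and both rose, Ptprc from between 949 and 1043 CPM in PBS to between 1536 and 1747 CPM in WGP libraries (log2 fold change 0.71, edgeR adjusted p = 0.00725) and Itgam from between 189 and 254 CPM to between 379 and 418 CPM (0.79, 0.00618). PBS 1 stood apart by its B-cell genes (Cd79a, Ms4a1 and Pax5 summed to 1685 CPM, against 246 to 417 in the other PBS libraries and 56.4 to 104 in the WGP libraries), and all 3 of these genes fell. WGP 2 stood apart by 6 fibroblast genes, which summed to 1817 CPM in it and to between 33.7 and 176 CPM in the other 5 libraries. Y-linked counts were present only in PBS 2 and PBS 3, so the sexes behind the libraries were not balanced between the groups. A covariate for these counts takes up PBS 2 and PBS 3, so the fit with it sets PBS 1 alone against the 3 WGP libraries, and the spread of PBS 1 is assumed to be that of the other libraries. Values from that fit are given as those with PBS 1 as the only PBS library. Of 10 resident macrophage markers 8 fell and none rose, their summed level running from 9126 to 18950 CPM in PBS and from 3422 to 5515 CPM in WGP libraries, with none at 0. Of 7 markers of Ly6C-high monocytes 4 rose and 1 fell, with sums from 2482 to 4173 CPM in PBS and from 3503 to 3983 CPM in WGP libraries. All 6 acinar cell markers tested fell, with sums from 1097 to 4389 CPM in PBS and from 315 to 518 CPM in WGP libraries. Of 7 markers of conventional dendritic cells only Cd209a passed (log2 fold change -1.35, edgeR adjusted p = 0.00854), and of 4 endothelial markers only Kdr (2.52, 0.00839). The tested markers of T cells, eosinophils, mast cells and basophils, islet cells and erythroid cells did not pass. The part of these shifts in the cathepsin levels was not tested.

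Of the 10 cathepsins, 5 rose in the WGP libraries (Ctss, Ctsd, Ctsz, Ctsk and Ctsc) and 0 fell. Over all genes tested 7.54% rose and 6.81% fell at the same threshold. Where a log2 change of 1 or more was required as well, Ctss, Ctsd, Ctsz and Ctsk were called higher, which 4.53% of all genes tested were. The median log2 fold change was 0.45 over the 10 cathepsins and -0.05 over all genes tested. In 5 of the 10 the groups did not overlap, as in 32.0% of all genes tested. Without PBS 1 and WGP 2, the libraries that stood apart, 5 cathepsins still passed and 4 were called. The 10 genes together made up 0.788%, 0.992% and 1.10% of all counts in the PBS libraries and 1.19%, 1.61% and 1.44% in the WGP libraries. The groups did not overlap, with an exact two-sided permutation p of 0.1, the smallest that 3 libraries against 3 can give.

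**Figure D1:**
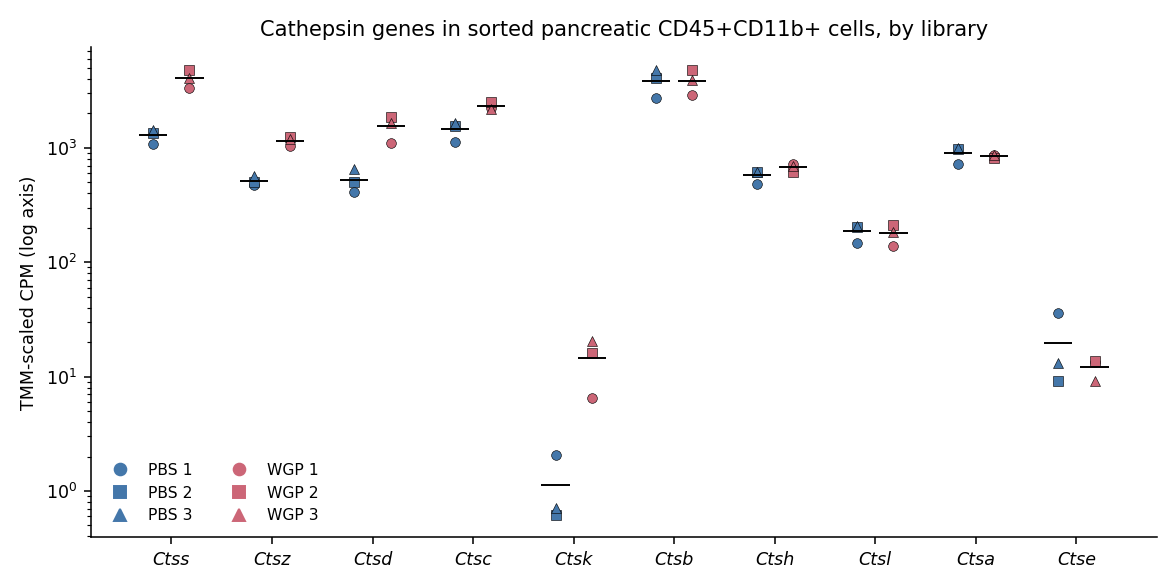
TMM-scaled CPM (log axis) of the 10 cathepsin genes in each of the 3 PBS (blue) and 3 WGP (red) libraries, with marker shapes for the library number and black bars for the group means. The WGP libraries lie above all PBS libraries for Ctss, Ctsz, Ctsd, Ctsc and Ctsk, and the groups overlap for Ctsb, Ctsh, Ctsl, Ctsa and Ctse.

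Sequence upstream of the start sites is shown for the 4 cathepsins called higher and for Ctsa, which shares a motif with Ctsd, since the transcription factor EB family (Tfeb, Tfe3, Mitf and Tfec) is known to drive lysosomal genes through the CLEAR element. RefSeq promoter windows on GRCm38.p6 matched 7 of the 10 cathepsins (Ctsa with 2 starts, Ctsc, Ctsd, Ctsk, Ctsl, Ctss and Ctsz). The 250 bases before each start were searched on both strands for 8 motifs. The core of the CLEAR element, TCACGTGA, was present in 0.785% of all 32851 promoters and in 2 of the 7 cathepsins, Ctsd, which rose, and Ctsa, which did not pass. Its position was 99 bases upstream of the Ctsd start (chr7:142387908-142387937, minus strand) and 13 bases upstream of a Ctsa start (chr2:164833749-164833778, plus strand). The 30 bases around it are given 5′ to 3′ with the core in capitals. The Ctsd site lies within the first exon of a longer GENCODE transcript.
Ctsd: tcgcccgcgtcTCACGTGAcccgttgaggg
Ctsa: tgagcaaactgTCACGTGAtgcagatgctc

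The 250 bases before the start are printed for Ctss (chr3:95526536-95526785, plus strand), Ctsz (chr2:174439040-174439289, minus strand) and Ctsk (chr3:95498960-95499209, plus strand), the other genes called higher, with motif matches in capitals.
Ctss: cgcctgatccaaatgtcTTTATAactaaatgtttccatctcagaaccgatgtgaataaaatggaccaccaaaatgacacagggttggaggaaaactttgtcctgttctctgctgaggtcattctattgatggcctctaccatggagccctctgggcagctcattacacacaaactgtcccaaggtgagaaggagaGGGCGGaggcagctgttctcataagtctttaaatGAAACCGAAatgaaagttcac
Ctsz: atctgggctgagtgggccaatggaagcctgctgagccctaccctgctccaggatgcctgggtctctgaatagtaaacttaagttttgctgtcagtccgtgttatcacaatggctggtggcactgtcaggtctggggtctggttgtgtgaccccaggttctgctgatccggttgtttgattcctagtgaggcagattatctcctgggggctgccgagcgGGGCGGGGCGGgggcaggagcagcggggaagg
Ctsk: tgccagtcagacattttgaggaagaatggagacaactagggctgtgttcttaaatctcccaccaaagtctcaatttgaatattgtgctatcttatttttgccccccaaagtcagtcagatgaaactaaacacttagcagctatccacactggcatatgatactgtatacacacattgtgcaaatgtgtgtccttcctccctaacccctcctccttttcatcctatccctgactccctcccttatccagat

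In the Ctss window the capitals mark, from left to right, a TATA box written on the other strand (TATAAA, 12.4% of promoters), a GC box (GGGCGG, 32.7%) and a match to the interferon regulatory factor letters GAAANNGAA (7.13%) that begins 21 bases before the start. In the Ctsz window they mark a pair of GC boxes that share 1 base. None of the 8 motifs matched in the Ctsk window, whose GC content was 43.2%, against 44.8% for Ctss, 58.8% for Ctsz and 67.2% for Ctsd. The other motifs searched were the E-box core CACGTG, which lies inside the CLEAR core (6.02% of promoters, in Ctsa, Ctsd and Ctsl), GAGGAAGT of PU.1 (2.44%, in Ctsc), the interferon-gamma activated site TTCNNNGAA (7.02%, in Ctsc) and TGAGTCA of AP-1 (4.46%, in none of the 7). These are letter matches and not measured binding.

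Ctss (ENSMUSG00000038642, chr3:95526786-95556403, plus strand), the cathepsin that carries out the last cleavage of the invariant chain in antigen-presenting cells, was at 1086, 1337 and 1425 CPM in PBS 1, 2 and 3 and at 3353, 4831 and 4107 CPM in WGP 1, 2 and 3. The lowest WGP library was above the highest PBS library. Its log2 fold change was 1.68 (SE 0.19, edgeR adjusted p = 0.00024), a 3.19-fold rise with a 95% interval from 2.39 to 4.26. This was the smallest adjusted p among the 10 cathepsins, and over 19 alternative fits the log2 fold change lay between 1.43 and 1.92.

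Ctsd (ENSMUSG00000007891, chr7:142375911-142388038, minus strand), the main aspartic protease of the lysosome, was at 413, 507 and 654 CPM in the PBS libraries and at 1100, 1856 and 1657 CPM in the WGP libraries. The groups did not overlap, and WGP 1 was the lowest of its group. The log2 fold change was 1.55 (SE 0.23, edgeR adjusted p = 0.00141), a 2.93-fold rise. Of its 2351 exon bases 808 are shared with the same-strand gene Gm49369, which had no counts in any library, and how the counting treated reads there is not given in the sources used here. Per length without those bases Ctsd was at 340 ± 78.7 and 997 ± 254 CPM per kb (SD, n = 3) in place of 223 ± 51.7 and 654 ± 167.

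Ctsz (ENSMUSG00000016256, chr2:174427493-174439039, minus strand), which encodes a carboxypeptidase of the cysteine class also named cathepsin X, was at 472, 507 and 571 CPM in the PBS libraries and at 1035, 1243 and 1197 CPM in the WGP libraries. The groups did not overlap, and each stayed within a narrow band. The log2 fold change was 1.16 (SE 0.15, edgeR adjusted p = 0.00057) and stayed between 1.05 and 1.29 over the 19 alternatives.

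Ctsk (ENSMUSG00000028111, chr3:95499256-95509362, plus strand), the collagen-degrading cathepsin best known from osteoclasts, lies 17423 bases from Ctss with no annotated gene between them. It was at 2.06, 0.616 and 0.709 CPM in the PBS libraries and at 6.49, 16.2 and 20.7 CPM in the WGP libraries. These levels rest on 79, 24 and 29 counts in PBS and 239, 670 and 846 counts in WGP libraries. The most frequent low count of a library was between 17 and 43. It was taken as the number of reads that 1 molecule gave, an assumption that was not tested, and smaller counts also occurred. Counts divided by it are called counts per molecule here. The PBS libraries held between 0.8 and 1.84 times that count and the WGP libraries between 14.1 and 28.2 times. The log2 fold change was 3.68 (SE 0.66, edgeR adjusted p = 0.00421), with a 95% interval of the fold from 4.59 to 35.7. The log2 fold change was 4.44 without PBS 1 and 2.81 with PBS 1 as the only PBS library. Ctsk did not pass in limma-voom (log2 fold change 3.77, adjusted p = 0.0662) or in edgeR with PBS 1 as the only PBS library (0.061), in a range over the alternatives that starts at 1.41e-06 in DESeq2.

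Fibroblasts and osteoclasts are known to transcribe Ctsk, and which cells held its transcripts here was not tested. WGP 3, with the highest Ctsk level, had the lowest sum of the 6 fibroblast genes (33.7 CPM), and without WGP 2 the log2 fold change of Ctsk was 3.59 (edgeR adjusted p = 0.0109). Of 6 osteoclast markers Calcr and Oscar were at 0 in every library. Mmp9, which the study also used to identify neutrophils, fell with a log2 fold change of -1.41. Acp5, Ocstamp and Dcstamp did not pass, at log2 fold changes above 0 (1.03, 0.68 and 0.90). The sum of the 6 ran from 545 to 694 CPM in PBS and from 222 to 371 CPM in WGP libraries, most of it Mmp9.

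Ctsc (ENSMUSG00000030560, chr7:88278085-88310888, plus strand), dipeptidyl peptidase I, which activates the serine proteases of neutrophil and lymphocyte granules, was at 1133, 1560 and 1654 CPM in the PBS libraries and at 2234, 2502 and 2172 CPM in the WGP libraries. The groups did not overlap, but the rise was smaller than for the other 4, at a log2 fold change of 0.67 (SE 0.18, edgeR adjusted p = 0.0291). It did not pass without PBS 2, WGP 1, WGP 2 or WGP 3, with adjusted p values between 0.0699 and 0.0824 in edgeR, and its log2 fold change over all alternatives ran from 0.45 to 1.02.

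Of 5 granule proteases that Ctsc is known to process, 0 rose and 3 fell, against 7.54% and 6.81% of all genes tested. Gzmb (log2 fold change -1.88, edgeR adjusted p = 0.0156), Gzma (-1.81, 0.0187) and Elane (-3.47, 0.0357) fell, and Prtn3 and Ctsg did not pass. Gzma went from 97.8, 53.2 and 21.4 CPM in PBS to 14.8, 18.0 and 16.3 CPM in WGP libraries. Elane was at 60.2 CPM in PBS 1 and at 9.63 CPM or less elsewhere, and without PBS 1 it was at a log2 fold change of -1.50 and did not pass (edgeR adjusted p = 0.303). It also did not pass without WGP 1 (0.123) or WGP 3 (0.124), when libraries were blocked by number (log2 fold change -2.38, edgeR adjusted p = 0.0952) or with edgeR's own filter on low counts (0.055). Without PBS 1 the log2 fold change of Gzma was -1.19. In limma-voom none of the 3 passed (adjusted p of 0.0954 for Gzma, 0.0665 for Gzmb and 0.424 for Elane). Gzma also did not pass in edgeR without WGP 1 (0.0757) or WGP 3 (0.0672), nor Gzmb without PBS 2 (0.0684), WGP 1 (0.0606) or WGP 3 (0.0635). Of 8 neutrophil markers, Cxcr2 and Csf3r rose. The other 6 did not pass, all at log2 fold changes below 0 (from -1.28 for Ngp to -0.62 for S100a8). The sums of the 8 ran from 1585 to 5308 CPM in PBS, highest in PBS 1, and from 2267 to 2434 CPM in WGP libraries. Of 5 NK-cell markers, Gzma being one, only Gzma passed, with sums from 44.8 to 177 CPM in PBS and from 36.6 to 46.2 CPM in WGP libraries. Their part in the granule protease levels was not tested.

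Ctsb, Ctsh, Ctsl, Ctsa and Ctse did not pass. Ctsb (ENSMUSG00000021939, chr14:63122462-63145923, plus strand), an abundant endo- and exopeptidase of the lysosome, was at 2748, 4064 and 4764 CPM in the PBS libraries and at 2872, 4752 and 3902 CPM in the WGP libraries. The groups overlapped almost fully, and the 95% interval of the fold ran from 0.687 to 1.44 (log2 fold change -0.01, SE 0.24, edgeR adjusted p = 0.993). Ctsb had the most counts of the 10 genes in every PBS library, and Ctss had more counts than Ctsb in every WGP library.

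Ctsl (ENSMUSG00000021477, chr13:64359337-64370890, minus strand), a broad endopeptidase, was at 149, 203 and 208 CPM in PBS and at 138, 213 and 184 CPM in WGP libraries, and the 95% interval of its fold ran from 0.707 to 1.29. Ctsa (ENSMUSG00000017760, chr2:164832873-164841032, plus strand), which shields neuraminidase and β-galactosidase in the lysosome, was at 718, 981 and 1004 CPM in PBS and at 873, 813 and 871 CPM in WGP libraries. Its fold lay between 0.734 and 1.22 at 95%. A rise as large as that of Ctsz lay outside the intervals of all 3 genes. All 3 have exon bases opposite another gene, 1742 of 6489 for Ctsl (Gm47123), 774 of 6051 for Ctsb (Fdft1), and 495 (Pltp) and 324 (Neurl2) of 4715 for Ctsa, where reads cannot be told apart without a strand setting. Ctsl also shares 395 bases with the pseudogene Gm49230.

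Ctsh (ENSMUSG00000032359, chr9:90054152-90076089, plus strand), an aminopeptidase, was at 486, 614 and 620 CPM in PBS and at 718, 619 and 691 CPM in WGP libraries, with WGP 2 just below PBS 3. The log2 fold change was 0.24 (SE 0.15, edgeR adjusted p = 0.372). Ctse (ENSMUSG00000004552, chr1:131638306-131675505, plus strand), an aspartic protease of endosomes, was at 36.3, 9.19 and 13.2 CPM in PBS and at 13.4, 13.8 and 9.11 CPM in WGP libraries. Its log2 fold change of -0.69 (SE 0.47, edgeR adjusted p = 0.395) turned to 0.11 without PBS 1 and to -1.58 with PBS 1 as the only PBS library.

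**Figure D2:**
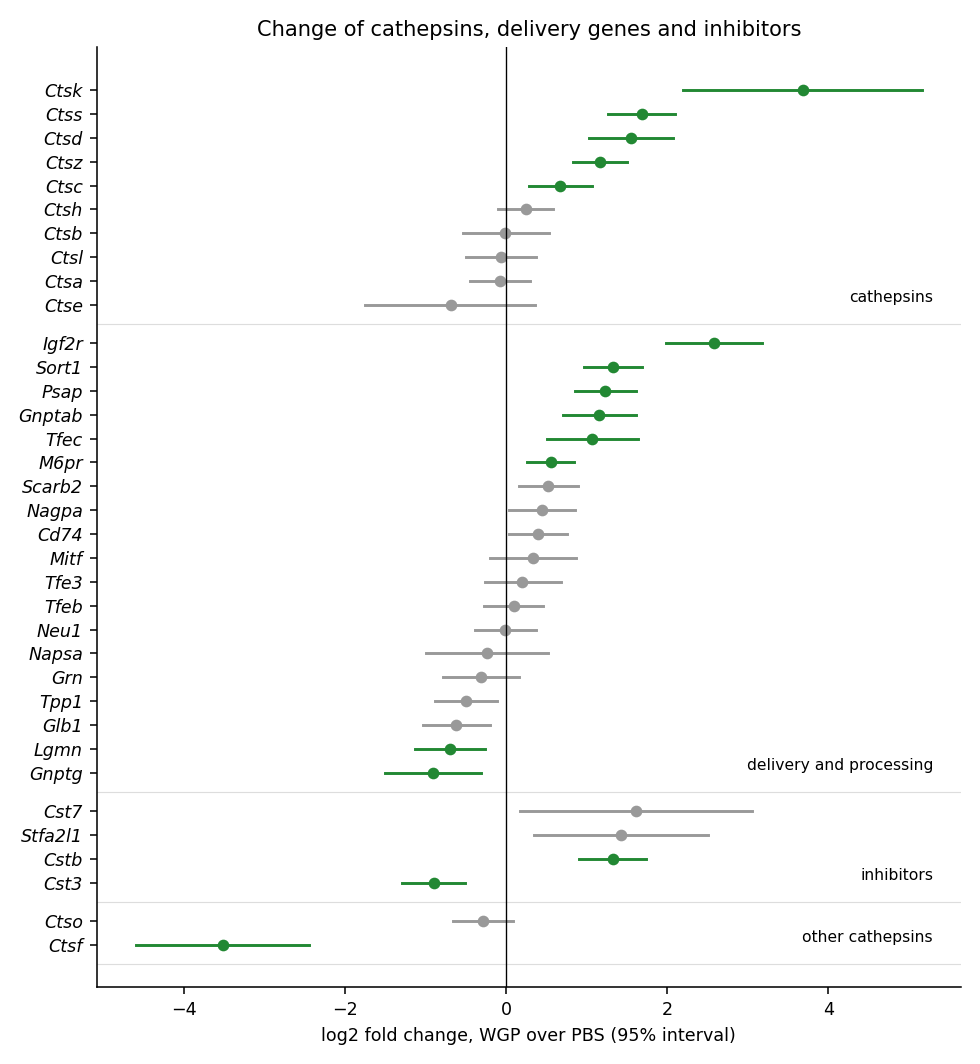
Log2 fold changes (WGP over PBS, points) with 95% intervals (lines) from edgeR for the cathepsins, the delivery and processing genes, the inhibitors and the other cathepsin genes with a group mean of at least 10 CPM, where green marks an adjusted p of at most 0.05. The cathepsins run from 3.68 for Ctsk to -0.69 for Ctse, and Ctsf lies lowest at -3.52.

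Of the 3 PBS libraries PBS 1 was the lowest for 8 of the 10 genes, against 43.7% of all genes tested, and the exceptions were Ctsk and Ctse, for which it was the highest. Of the 3 WGP libraries WGP 1 was the lowest for 6 of the 10, against 38.2% of all genes tested. The resident macrophage markers also summed to the least in PBS 1 (9126 CPM, against 15710 and 18950) and in WGP 1 (3422 CPM, against 5515 and 4822). Counts of 2 cathepsins in the same library were therefore also compared as ratios, which do not depend on scaling. The ratio of Ctss to Ctsb counts was 0.395, 0.329 and 0.299 in the PBS libraries and 1.17, 1.02 and 1.05 in the WGP libraries. That of Ctsd to Ctsb was 0.15, 0.125 and 0.137 in PBS and 0.383, 0.391 and 0.425 in WGP libraries. Neither pair of groups overlapped. The exact two-sided permutation p was 0.1 for each of the 6 ratios computed, which were chosen after their values were seen, and 0.1 after adjustment over the 6.

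Per length of exon, Ctss led in both groups, at 945 ± 129 CPM per kb in PBS and 3020 ± 544 CPM per kb in WGP libraries (SD, n = 3). In PBS libraries it was followed by Ctsb (638 ± 169), Ctsz (359 ± 34.9), Ctsc (249 ± 47.8), Ctsd (223 ± 51.7), Ctsa (191 ± 33.8) and Ctsh (127 ± 16.8), then Ctsl (28.8 ± 5.09), Ctse (6.16 ± 4.61) and Ctsk (0.745 ± 0.533). The neighbours Ctsc and Ctsd, and Ctsd and Ctsa, overlapped between libraries. In WGP libraries the order after Ctss was Ctsz (804 ± 76.1), Ctsd (654 ± 167), Ctsb (635 ± 156), Ctsc (396 ± 30.2), Ctsa (181 ± 7.21), Ctsh (150 ± 11.4), Ctsl (27.5 ± 5.84), Ctsk (9.55 ± 4.79) and Ctse (3.82 ± 0.817), where Ctsz, Ctsd and Ctsb overlapped, as did Ctsk and Ctse. The order below Ctss depended on the length used, since with the shortest principal transcript Ctsc, whose union of exons is longer than its main transcript, stood at 924 ± 70.3 CPM per kb in WGP libraries, above Ctsb and Ctsz.

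Ctss made up more of the summed cathepsin level per length in every WGP library than in any PBS library. Its share was 35.6%, 34.3% and 33.0% in the PBS libraries and 50.5%, 52.4% and 50.7% in the WGP libraries, a difference of 16.9 percentage points. Ctsb went from 20.2%, 23.4% and 24.7% to 9.71%, 11.6% and 10.8% of the sum while its own level did not pass the test. Ctsd went from 7.81%, 7.51% and 8.73% to 9.57%, 11.6% and 11.8%, and Ctsz had overlapping shares (12.2% to 14.6% and 12.7% to 14.7%). The shares of 9 of the 10 genes did not overlap between groups, at an exact two-sided permutation p of 0.1 each (0.111 adjusted over the 10 shares), with Ctsz as the exception at an exact permutation p of 0.5. Which genes overlapped depended on the weighting by length. In percent of the summed cathepsin counts, not divided by length, the groups overlapped for Ctsc, Ctse and Ctsh and did not for the other 7, with Ctsz going from 6.52%, 5.18% and 5.23% to 8.38%, 7.37% and 8.08%. Ctsc then had 15.6%, 15.9% and 15.2% in PBS and 18.1%, 14.8% and 14.7% in WGP libraries. Shares of a sum are not independent of each other. A larger share of Ctss lowers the summed share of the other genes whether or not their own levels changed.

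**Figure D3:**
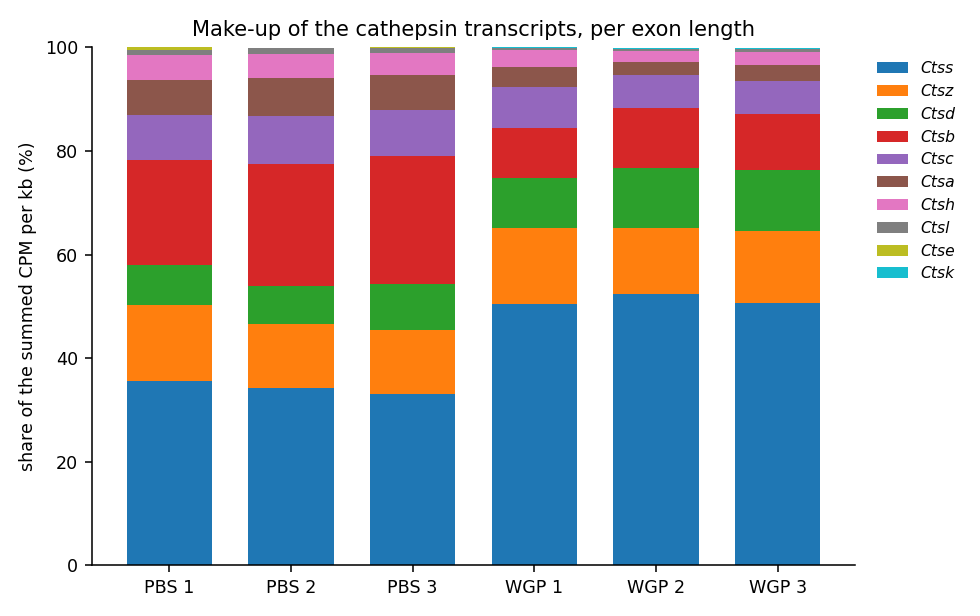
Share of each cathepsin in the summed CPM per kb of exon (%), as stacked bars for each of the 6 libraries. Ctss takes between 33.0% and 35.6% in the PBS libraries and between 50.5% and 52.4% in the WGP libraries, while Ctsb goes from between 20.2% and 24.7% to between 9.71% and 11.6%.

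Of 19 genes that deliver, activate or accompany cathepsins in the lysosome or control their transcription, 6 rose and 2 fell. Over all genes tested 7.54% rose and 6.81% fell. Both mannose 6-phosphate receptors were among the 6 that rose. Igf2r, the cation-independent receptor, was at 33.8, 24.6 and 17.5 CPM in PBS and at 115, 187 and 150 CPM in WGP libraries, without overlap. Its log2 fold change of 2.58 (SE 0.27, edgeR adjusted p = 0.000147) was the largest rise on the list. M6pr, the cation-dependent receptor, rose less, with a log2 fold change of 0.55 (edgeR adjusted p = 0.0175), and did not pass without PBS 2 (edgeR adjusted p = 0.0746), WGP 1 (0.0677) or WGP 3 (0.0535).

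Sort1, a sorting receptor for prosaposin and other lysosomal proteins, went from 53.4, 52.2 and 42.9 to 132, 110 and 131 CPM (log2 fold change 1.33, SE 0.16, edgeR adjusted p = 0.000356). Psap, the precursor of the saposins, went from 3151, 4040 and 4276 to 8598, 8824 and 9520 CPM (1.23, SE 0.17, edgeR adjusted p = 0.000845). In both genes the WGP libraries lay close together and well above the PBS libraries. The subunits of the enzyme that makes the mannose 6-phosphate tag went opposite ways. Gnptab, its catalytic subunit precursor, rose with a log2 fold change of 1.15 (edgeR adjusted p = 0.00369), and it did not pass with PBS 1 as the only PBS library (0.0588). Gnptg, its gamma subunit, fell with a log2 fold change of -0.91 (edgeR adjusted p = 0.0443), on a locus where 1113 of 2249 exon bases lie opposite Unkl.

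Lgmn, the asparaginyl endopeptidase that cleaves cathepsin precursors into chains, fell from 754, 1157 and 1204 CPM to 559, 685 and 679 CPM (log2 fold change -0.70, edgeR adjusted p = 0.0398). The ratio of Ctsd to Lgmn counts was higher in every WGP library than in any PBS library, going from 0.547, 0.439 and 0.543 to 1.97, 2.71 and 2.44. Neither Gnptg nor Lgmn passed when PBS 2, PBS 3 or any WGP library was left out, with edgeR adjusted p values from 0.0598 to 0.166, while both passed without PBS 1. Neither passed with PBS 1 as the only PBS library, at log2 fold changes of -0.23 for Lgmn (edgeR adjusted p = 0.472) and -0.58 for Gnptg (0.332). Gnptg also missed the threshold when libraries were blocked by number (edgeR adjusted p = 0.081) and in limma-voom (0.0613). Of the transcription factors of the EB family Tfec rose (log2 fold change 1.07, edgeR adjusted p = 0.0179), from 14.0, 14.8 and 10.3 to 24.3, 26.1 and 31.5 CPM. It did not pass without PBS 3 (edgeR adjusted p = 0.0542) or WGP 3 (0.0888), nor with PBS 1 as the only PBS library (0.136). Tfeb, Tfe3 and Mitf did not pass, with log2 fold changes of 0.09, 0.20 and 0.33. PBS 1 was the lowest library for Tfe3 (110.6 CPM, against 198 in both other PBS libraries) and Mitf (36.7 CPM, against 72.8 and 69.4). Over the alternatives the log2 fold change ran from -0.06 to 0.81 for Tfe3 and from 0.07 to 1.03 for Mitf, and each passed only with PBS 1 as the only PBS library. Cd74, the invariant chain that Ctss cleaves, was at 12330, 14460 and 14100 CPM in PBS and at 19050, 16230 and 18320 CPM in WGP libraries. Its groups did not overlap, as was so for 32.0% of all genes tested, but it did not pass (log2 fold change 0.39, edgeR adjusted p = 0.155). Scarb2, Nagpa, Grn, Neu1, Glb1, Tpp1 and Napsa did not pass either, with log2 fold changes between -0.62 and 0.52. The median log2 fold change of the 19 genes was 0.33, against -0.05 over all genes tested.

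**Figure D4:**
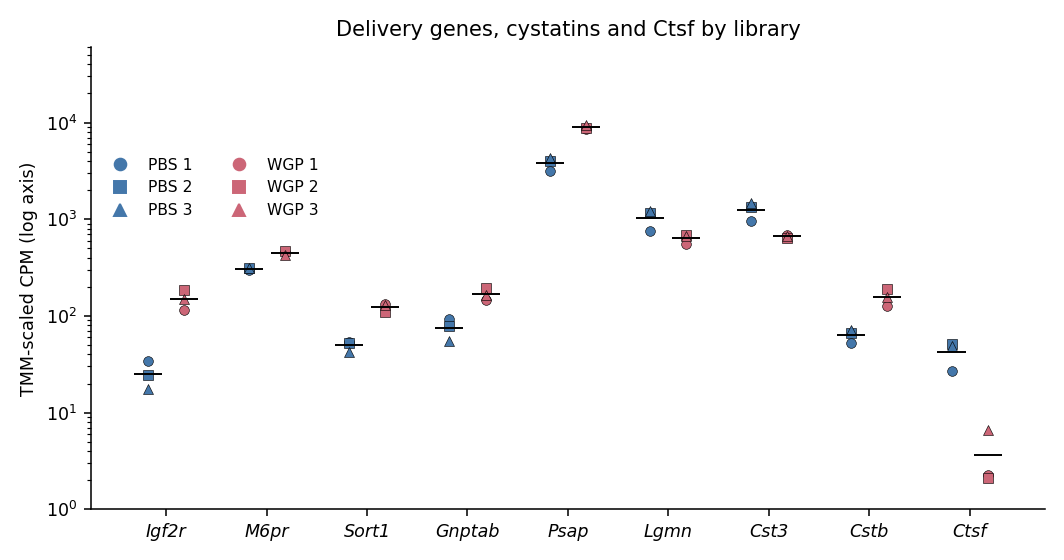
TMM-scaled CPM (log axis) of genes that deliver or process cathepsins (Igf2r, M6pr, Sort1, Gnptab, Psap and Lgmn), of the inhibitors Cst3 and Cstb and of Ctsf in the 3 PBS (blue) and 3 WGP (red) libraries, with black bars for group means. The 9 genes were picked with their values known, and their groups do not overlap (as in 32.0% of all genes tested), with Lgmn, Cst3 and Ctsf lower and the rest higher in WGP libraries.

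Of 13 cystatin and stefin genes on the list 11 were in the table and 9 were tested, of which 1 rose and 1 fell. The shares over all genes tested were 7.54% and 6.81%. Cst3 (cystatin C), the secreted inhibitor with the highest level, fell from 959, 1324 and 1457 CPM to 692, 639 and 670 CPM. The WGP libraries lay close together and below all PBS libraries (log2 fold change -0.90, SE 0.18, edgeR adjusted p = 0.00621), and it did not pass with PBS 1 as the only PBS library (0.0534). Cstb (stefin B), the cytosolic inhibitor, rose from 52.2, 66.2 and 70.8 CPM to 127, 190 and 156 CPM (log2 fold change 1.32, SE 0.19, edgeR adjusted p = 0.00106). The ratio of Cstb to Cst3 counts went from 0.0544, 0.05 and 0.0486 in PBS to 0.184, 0.297 and 0.233 in WGP libraries. Cst7 (cystatin F), an inhibitor of Ctsc that works inside lysosomes, was at 9.57, 1.64 and 2.35 CPM in PBS and at 8.63, 15.5 and 17.3 CPM in WGP libraries and did not pass (edgeR adjusted p = 0.14). Without PBS 1 it passed at a log2 fold change of 2.79, and it also passed without PBS 1 and WGP 2 together (edgeR adjusted p = 0.00312) and with counts per molecule. Stfa2l1 did not pass, Csta1 and BC117090 were at 0 in every library, and the other 5 tested were at 2.24 CPM or less in every library.

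The 7 cysteine cathepsins summed per length stood at 2.26, 2.12 and 2.12 times the sum of Cst3 and Cstb in the PBS libraries and at 5.59, 7.09 and 6.44 times in the WGP libraries. The ratio was 2.94 times higher in the WGP libraries, with no overlap and an exact two-sided permutation p of 0.1. It compares transcripts and not the inhibition of the enzymes.

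Of the 13 other cathepsin genes in the table, 4 were tested. Ctsf, a cysteine cathepsin, was at 27.0, 51.1 and 48.5 CPM in PBS and at 2.28, 2.10 and 6.62 CPM in WGP libraries. It fell by a log2 fold change of -3.52 (SE 0.48, edgeR adjusted p = 0.000799) and passed in all 19 alternatives, with log2 fold changes from -4.27 without WGP 3 to -2.88 with PBS 1 as the only PBS library. Its counts in the WGP libraries were 84, 87 and 271, against 1038 to 1992 in PBS libraries. Ctsg, Ctso and Ctsw did not pass. Ctsg, a neutrophil granule protease, was at 21.8 CPM in PBS 1 and under 1 CPM in the other libraries. Of the 9 not tested, most of them known from the rodent placenta, 8 were at 0 in every library and Ctsll3 had counts in PBS 3 alone.

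For each cathepsin the gene with the nearest course over the 6 libraries was sought among 8559 genes with a mean of at least 10 CPM, by the root mean square difference of centred log2 values. Ctss was nearest to Psmb10, a subunit of the immunoproteasome (0.09), with Cybb, the catalytic subunit of the phagocyte NADPH oxidase, in the third place (0.095). Psmb10 was at 67.9, 74.0 and 73.3 CPM in PBS and at 191, 262 and 219 CPM in WGP libraries. Ctsd was nearest to Slc31a2, a copper transporter (0.076), at 27.9, 39.2 and 44.5 CPM in PBS and 73.7, 126 and 111 CPM in WGP libraries. Ctsc was nearest to Cflar, a regulator of caspase-8 (0.045), and Ctsz to Ss18l1 (0.063). Ctsk had no close match, with Serpina3g nearest at 0.42. Among the genes that did not pass, Ctsh was nearest to Notch2 (0.021), Ctsa to Il10rb (0.031), Ctsl to Plrg1 (0.066), Ctsb to Map4k3 (0.078) and Ctse to Cdca3 (0.22). The distances are a description over 6 libraries.

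**Figure D5:**
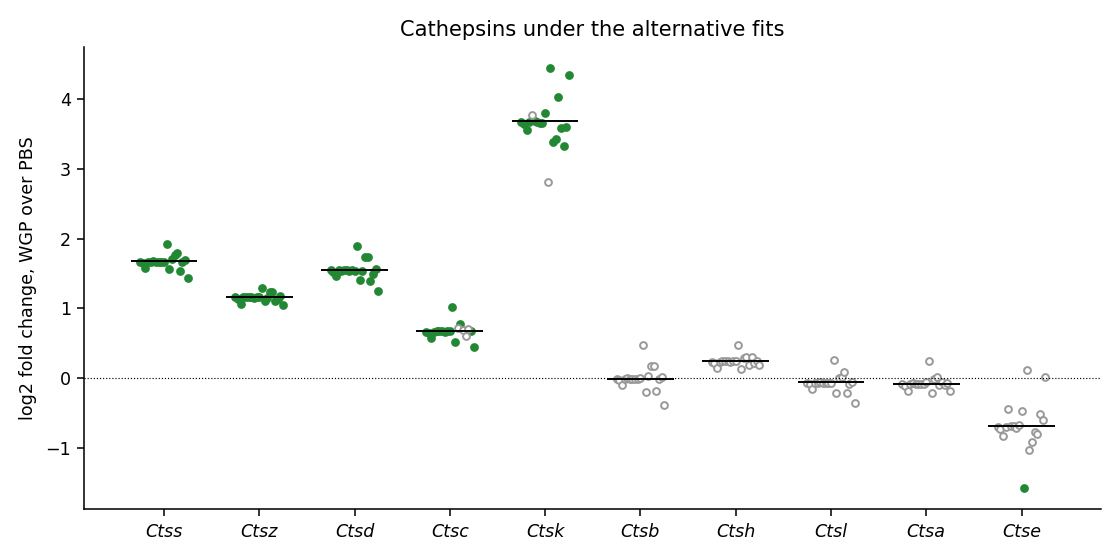
Log2 fold change of each cathepsin in the reported fit (black bars) and in 19 alternative fits (dots, green where the adjusted p was at most 0.05 and open where it was not), over other scalings, filters, tests, covariates and left-out libraries. Ctss, Ctsz and Ctsd passed in all 19, Ctsk in 17 and Ctsc in 15, while Ctsb, Ctsl, Ctsa and Ctse scatter on both sides of 0.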

How the data were processed

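RNA-seq of CD45+CD11b+ pancreatic cells (3 PBS and 3 WGP libraries, grouped by the labels' treatment field) was analysed from raw counts per Ensembl gene, which the authors made with STAR 2.6 on mm10 and HTSeq 0.10.0 and deposited without normalization. The annotation release, strand setting and handling of duplicate reads are not given in the sources used here. The study's text gives each sample as a separate animal from a single experiment. Without molecular identifiers reads are not independent molecules, which weighs most on genes of few counts such as Ctsk. All columns were mapped to samples.

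Positions and lengths came from GENCODE vM21 (GRCm38). Tested were protein-coding genes whose RLE-normalized counts summed to 10 or more, in R 4.3.3 with edgeR 4.0.16 (TMM, quasi-likelihood, Benjamini-Hochberg). Shares and ratios were compared by exact permutation (scipy). Alternatives used DESeq2 1.42.0, limma 3.58.1, other scalings, filters and lengths, a replicate block, a Y-linked covariate (which leaves PBS 1 as the only PBS library), left-out libraries and, added after the data were seen, counts per molecule, unshared or shortest principal lengths and PBS 1 with WGP 2 left out. Named genes are the 10 cathepsins, the 3 smallest p values per list among genes that passed and the nearest gene to each cathepsin. All other genes were picked with their values known. The members and lists were chosen with earlier results of these data known. 1 gene of the marker lists is left out.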

Additional observations from a re-analysis of the deposited data

How the results depend on the processing

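Over the 19 alternative fits Ctss, Ctsd and Ctsz kept direction and threshold, and the number of cathepsins that passed was 4 or 5. With a log2 fold change of at least 2 only 1 cathepsin, Ctsk, was called higher. The fit with the Y-linked covariate has PBS 1 as its only PBS library and is no adjustment for sex over the groups. In it 1 cathepsin (Ctse) passed and was called lower, 0 inhibitors fell, and 1 delivery gene, Napsa, fell in place of Gnptg and Lgmn. The delivery genes that fell numbered 4 with library totals only and in DESeq2, 1 in limma-voom, and from 0 to 5 with 1 library left out (5 without PBS 1, 0 without any other). The inhibitors that rose numbered from 1 to 2 with 1 library left out, 3 with counts per molecule, and 3 without PBS 1 and WGP 2 together, where 5 delivery genes fell. In the fit with the replicate number as a replicate block, 5 cathepsins rose and 1 delivery gene fell, and of all genes 1947 passed, against 2071 without it. Over all genes tested the same-numbered libraries did not deviate together (correlations of 0.0229, -0.0646 and 0.0432). With 3 libraries per group these correlations cannot exclude a pairing, and the labels do not state one. The share of Ctss differed by 15.5 percentage points with unshared exon bases, a setting that changed only the length of Ctsd among the cathepsins.

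Among the cathepsins signs turned only in genes that did not pass. With 1 library left out the log2 fold change ran from -0.22 to 0.01 for Ctsa, from -0.20 to 0.18 for Ctsb, from -0.21 to 0.09 for Ctsl and from -1.03 to 0.11 for Ctse. With PBS 1 as the only PBS library (the Y-linked covariate) it was 0.25 for Ctsa, 0.48 for Ctsb and 0.26 for Ctsl. Ctsb was at 0.01 with counts per molecule, and Ctse at 0.01 without PBS 1 and WGP 2 together. The cause was not tested. For Ctsk the low counts in the PBS libraries limit the estimate.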
